A study of Mus musculus with 12 samples.

Results

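The constitutive proteasome subunits are the genes of the Psma, Psmb, Psmc and Psmd families, taken here without Psmb8, Psmb9 and Psmb10, which encode the subunits that replace catalytic subunits in the immunoproteasome. They were taken as the entries whose symbol is Psma, Psmb, Psmc or Psmd followed by a number. Of 42329 entries in the expression table, 34 matched, and 32 of these had at least 1 FPKM (fragments normalised for gene length and library size, a level per length) in at least 3 of 12 libraries. The 32 genes comprised 13 core subunits (Psma and Psmb) and 19 regulatory genes (Psmc and Psmd), and they stood among 13736 genes that passed the same filter. Psmb5 and Psmd2 were not analysed here.

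MC38 is a mouse colon adenocarcinoma cell line. RNA was sequenced from MC38 cells with an sgHcar1 guide given 20 mM lactate, the same sgHcar1 cells given PBS, cells with an sgControl guide given 20 mM lactate, and sgControl cells given PBS, with 3 libraries in each group. Lactate was given for 24 hours; no time is stated for PBS in the labels. Hcar1 encodes a G protein-coupled receptor for lactate, and the comparison asks how lactate acts with and without its guide. The labels do not say whether either cell population was a clone or a pool, nor whether replicates were separate cultures, so p-values measure only the spread between these libraries. Hcar1 itself was listed at 0 in 11 of 12 libraries and reached at most 0.0196 FPKM, so its level is no check of the guide (exact two-sided permutation test of 6 against 6 libraries, p = 1, with 0.00216 the smallest p possible). Of the epithelial markers examined, Epcam and Cdx2 were at 0 in every library, and the sum over the 7 of 8 with an entry was 110.3 to 114 FPKM in sgHcar1 lactate and 44.9 to 48.5 FPKM in sgHcar1 PBS, nearly all of it Krt18, against 4.85 to 5.16 FPKM in sgControl lactate and 2.98 to 3.29 FPKM in sgControl PBS. Cdh1 and Krt19 went the other way and were at 0 in both sgHcar1 groups. In sgControl cells Cdh1 averaged 4.53 FPKM with lactate and 1.72 FPKM with PBS, and Krt19 0.300 and 1.31 FPKM. Krt8 and Vil1 reached at most 0.251 and 0.234 FPKM. The 5 leukocyte markers summed to at most 0.0246 FPKM, with Cd3e, Itgam and Adgre1 at 0, and the 3 endothelial markers to at most 0.748 FPKM, with Cdh5 at 0 in every sgHcar1 library. The 6 fibroblast markers summed to 65.7 to 71.6 FPKM in sgHcar1 lactate and 139.6 to 148 FPKM in sgHcar1 PBS, against 58.1 to 60.3 FPKM in sgControl lactate and 68.3 to 70.3 FPKM in sgControl PBS, with Thy1 and Lum at 0. Col1a1 and Col1a2 averaged 23.1 and 115 FPKM in sgHcar1 PBS, against 1.01 and 45.5 FPKM in sgControl PBS. Pdgfra and Pdgfrb went the other way in PBS, at 0.462 and 5.08 FPKM in sgHcar1 cells, against 5.02 and 17.8 FPKM in sgControl cells. They were also lower in sgHcar1 lactate, at 0.702 and 11.6 FPKM, against 4.91 and 19.7 FPKM in sgControl lactate. The marker sums moved with the guide and with lactate, and their part in the proteasome results was not tested.

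The proteasome degrades proteins that carry ubiquitin chains. Its core particle is a barrel of stacked rings: the outer rings are built from alpha subunits (Psma), which gate the entrance, and the inner rings from beta subunits (Psmb), of which Psmb5, Psmb6 and Psmb7 carry the proteolytic sites. The regulatory particle caps the barrel. Its base holds a ring of ATPases (Psmc) that unfolds the substrate, together with scaffold and ubiquitin receptor subunits, and its lid holds the deubiquitinase Psmd14 on a scaffold of other Psmd subunits. When the proteasome is impaired, the transcription factor Nfe2l1 is known to raise the genes of both particles through antioxidant response elements in their promoters.

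RefSeq promoter windows (build GRCm38.p6, 300 bases each, from before a gene's start to just after it) were matched for 26 of the 32 genes. Of these windows 4 are printed, each of a gene from a different part of the particle. Psma2, chr13:14612992-14613291 on the plus strand, belongs to the alpha ring. Psmb6, chr11:70525107-70525406 on the plus strand, carries a proteolytic site. Psmc2, with window chr5:21785025-21785324 on the plus strand as the first of its listed windows, is the ATPase that rose most with lactate in sgHcar1 cells. Psmd13, chr7:140882144-140882443 on the plus strand, is a lid subunit that fell in both cell populations. Each is written 5′ to 3′ and capitals mark matches, on either strand, to TGACNNNGC (the core of an antioxidant response element), CCGGAAG (an ETS factor site), CCAAT (the CCAAT box) or GCATGCGC (a nuclear respiratory factor 1 site).
Psma2: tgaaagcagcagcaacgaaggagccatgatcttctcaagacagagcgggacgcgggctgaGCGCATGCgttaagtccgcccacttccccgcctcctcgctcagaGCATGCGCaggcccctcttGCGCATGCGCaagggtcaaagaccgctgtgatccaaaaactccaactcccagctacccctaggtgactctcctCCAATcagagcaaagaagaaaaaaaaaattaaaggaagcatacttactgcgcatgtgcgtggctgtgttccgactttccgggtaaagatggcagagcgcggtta
Psmb6: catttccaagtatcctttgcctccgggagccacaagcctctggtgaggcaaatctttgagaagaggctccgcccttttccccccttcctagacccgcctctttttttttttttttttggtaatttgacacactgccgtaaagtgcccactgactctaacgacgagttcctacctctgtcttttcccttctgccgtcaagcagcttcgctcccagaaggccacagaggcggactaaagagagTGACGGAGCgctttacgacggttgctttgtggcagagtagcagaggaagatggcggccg
Psmc2: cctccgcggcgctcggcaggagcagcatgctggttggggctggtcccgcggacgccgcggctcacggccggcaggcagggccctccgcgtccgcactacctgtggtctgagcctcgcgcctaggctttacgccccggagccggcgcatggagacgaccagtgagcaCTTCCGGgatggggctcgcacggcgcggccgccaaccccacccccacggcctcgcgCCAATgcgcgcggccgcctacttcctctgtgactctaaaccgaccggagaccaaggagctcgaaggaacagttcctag
Psmd13: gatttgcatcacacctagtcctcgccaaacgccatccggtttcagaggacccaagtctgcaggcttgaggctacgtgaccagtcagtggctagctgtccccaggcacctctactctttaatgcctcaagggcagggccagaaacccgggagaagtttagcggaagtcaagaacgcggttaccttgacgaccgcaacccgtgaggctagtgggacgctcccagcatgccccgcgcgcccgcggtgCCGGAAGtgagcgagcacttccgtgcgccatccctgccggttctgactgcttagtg

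Among these windows the match to TGACNNNGC stands in Psmb6 only. Over all 26 genes it was found in 4 (15.4%), namely Psmb6, Psmc6, Psmd9 and Psmd12, against 14% of all 27025 genes with a window. CCGGAAG was found in 9 of 26 (34.6%), against 9.93% of all genes, and those 9 were 1 of 10 core genes (Psma6) and 8 of 16 regulatory genes, among them Psmc2 and Psmd13. CCAAT was found in 11 of 26 (42.3%), against 41.1% of all genes. GAANNTTC, a pair of heat shock element units, was found in none of the 26, against 9.04% of all genes. GCATGCGC was searched after its letters were seen in the Psma2 window, which holds it at several places, and the other gene with a match was Psmc5 (2 of 26, 7.69%, against 3.05% of all genes). None of these motifs contains another. A match is a description of these letters and not a measured binding site.

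With lactate, the proteasome genes went down in sgControl cells and moved in both directions in sgHcar1 cells. In sgHcar1 cells 17 of 32 genes were called higher and 14 lower at a limma adjusted p below 0.05, with a median log2 change of 0.12, while over all 13736 genes 36.8% were called higher and 35.4% lower with a median of 0.00. In sgControl cells 2 genes were called higher (Psmc6 and Psmd8) and 29 lower, with a median of -0.50, against 33.9% higher and 31.9% lower of all genes and a median of 0.00. In bulk RNA, fewer cells of a type and less RNA per cell cannot be told apart. Changes are differences of log2(FPKM + 1), lactate minus PBS, and they understate the change of genes at low levels. The split in sgHcar1 cells depends on how libraries are scaled to each other. It was 8 higher and 15 lower after quantile normalization, and 7 higher and 15 lower after each library was rescaled to an FPKM sum of 1000000, which moved the median of all genes by -0.12 and turned the members' median to -0.06. In sgControl cells the split was 2 and 29 after quantile normalization and 2 and 27 after rescaling.

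Read together, 14 genes were called higher in sgHcar1 cells and lower in sgControl cells, and 14 were called lower in both. Another 2 were called higher in both, and none was called lower in sgHcar1 cells and higher in sgControl cells. The share of all genes with each pair of calls is not given here, so these counts describe the proteasome genes only. The 14 genes called in opposite directions were Psmb1, Psmb4, Psmb6, Psmb7, Psmc1, Psmc2, Psmc5, Psmd1, Psmd4, Psmd7, Psmd10, Psmd11, Psmd12 and Psmd14. After quantile normalization 6 of them kept opposite calls (Psmc2, Psmc5, Psmd4, Psmd11, Psmd12 and Psmd14), and after rescaling to an equal FPKM sum 3 did (Psmc5, Psmd4 and Psmd14). The 14 genes lower in both populations were the whole alpha ring, Psmb3, Psmc3, Psmc4, Psmd3, Psmd6, Psmd9 and Psmd13, and all of these were lower in both under each of the 3 other scalings.

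**Figure D1:**
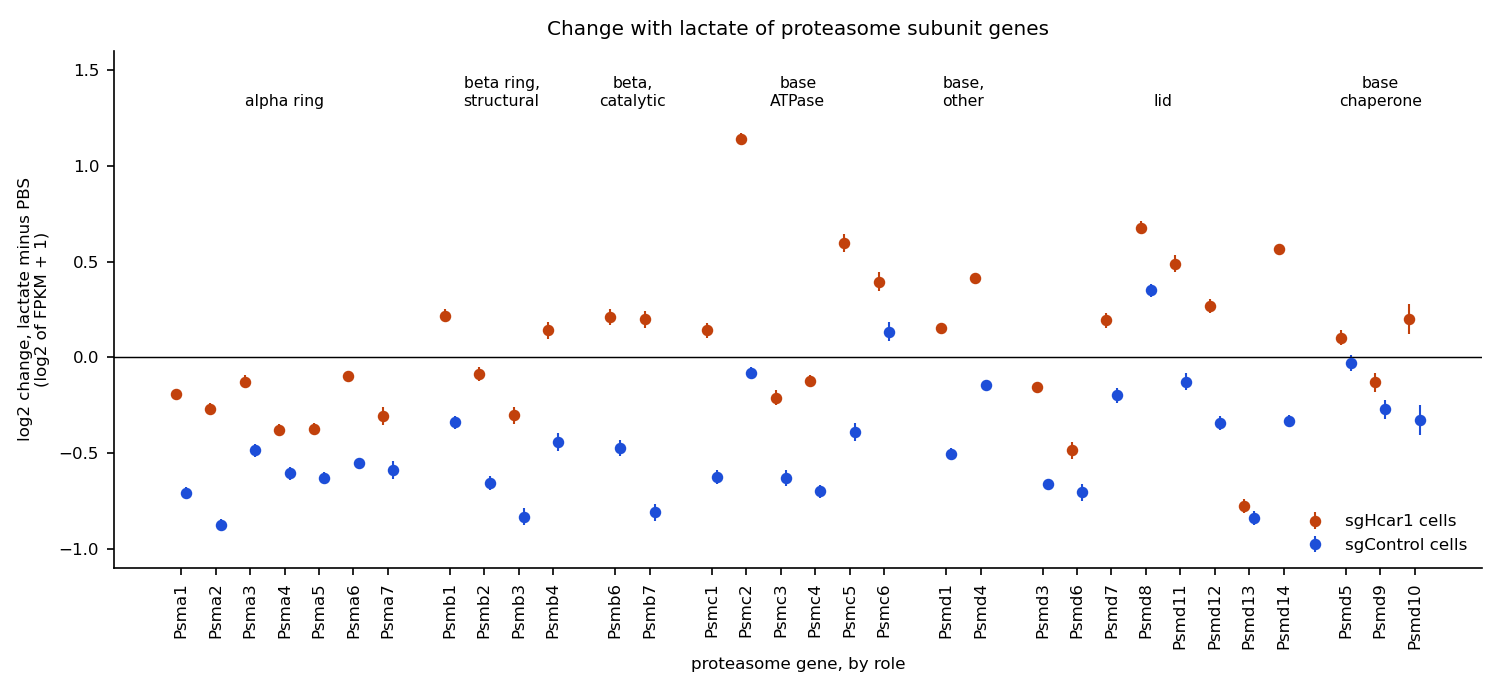
Log2 change with lactate (lactate minus PBS, log2 of FPKM + 1) of the 32 proteasome genes by role, with bars for the standard error of the limma fit, sgHcar1 cells in orange and sgControl cells in blue. On the deposited scale each orange point lies above its blue point, all 7 alpha ring genes lie below 0 in both, and Psmc2 stands highest at 1.14 in sgHcar1 cells; small positive orange values such as those of Psmb4, Psmc1, Psmd1 and Psmd5 turn negative when libraries are rescaled to an equal FPKM sum.

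The alpha ring fell as a whole. All 7 genes, Psma1 to Psma7, were called lower with lactate in both populations, with log2 changes of -0.38 (Psma4) to -0.10 (Psma6) in sgHcar1 cells and of -0.88 (Psma2) to -0.49 (Psma3) in sgControl cells. The shares of all genes called lower were 35.4% in sgHcar1 cells and 31.9% in sgControl cells. Mean levels over the 12 libraries ran from 41.8 FPKM for Psma3 to 136.7 FPKM for Psma2. Psma2 had 138, 140.2 and 142 FPKM in the sgHcar1 lactate libraries, against 169.6, 169 and 168 FPKM in sgHcar1 PBS. In sgControl cells it had 79.6, 85.4 and 85.4 FPKM with lactate, against 151, 153 and 159 FPKM with PBS. The sgControl lactate libraries were lowest for Psma2, and lactate and PBS libraries did not overlap in either population. The log2 change of Psma2 was -0.27 ± 0.03 (limma adjusted p = 1.11e-05) in sgHcar1 cells and -0.88 ± 0.03 (limma adjusted p = 1.14e-09) in sgControl cells. Psma5 stood at 126, 123 and 129 FPKM in sgHcar1 cells with lactate, against 164, 169.7 and 158 FPKM in sgHcar1 cells with PBS. The sgControl libraries had 73.9, 70.7 and 71.4 FPKM with lactate, against 109.9, 114 and 112 FPKM with PBS. Psma5 was higher in every sgHcar1 PBS library than in any sgControl library, and the lactate and PBS libraries were again apart in both populations. Its change was -0.37 ± 0.03 (limma adjusted p = 9.07e-07) in sgHcar1 cells and -0.63 ± 0.03 (limma adjusted p = 1.74e-08) in sgControl cells. Psma6 changed least of the ring in sgHcar1 cells, at -0.10 ± 0.02 (limma adjusted p = 0.00379).

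Among the structural beta subunits, Psmb1, the most abundant gene of the set at a mean of 218.6 FPKM, differed in direction between the populations. Psmb1 had 279, 273 and 292 FPKM in the sgHcar1 lactate libraries, against 236, 247 and 243 FPKM in sgHcar1 PBS. It had 152, 158 and 154 FPKM in sgControl lactate, against 200.04, 189 and 199 FPKM in sgControl PBS. The sgHcar1 lactate libraries were the highest of all and the sgControl lactate libraries the lowest. The log2 change was 0.22 ± 0.03 (limma adjusted p = 0.000144) in sgHcar1 cells and -0.34 ± 0.03 (limma adjusted p = 5.23e-06) in sgControl cells; in sgHcar1 cells the call was lost after quantile normalization and after rescaling (0.03 each). Psmb4 went the same way, with 0.14 ± 0.05 (limma adjusted p = 0.016) in sgHcar1 cells, a value that was 0.01 and no longer called after quantile normalization, turned to -0.05 after rescaling and lost its call without sgHcar1 PBS replicate 3 or sgHcar1 lactate replicate 2 (range 0.11 to 0.16 over left-out libraries), against -0.44 ± 0.05 (limma adjusted p = 6.04e-06) in sgControl cells. Psmb3 fell in both. Psmb3 stood at 42.1, 40.3 and 40.1 FPKM in sgHcar1 cells with lactate, against 49.5, 53.2 and 49.2 FPKM in sgHcar1 cells with PBS. For sgControl the values were 33.3, 34.3 and 37.8 FPKM with lactate, against 63.2, 63 and 63.7 FPKM with PBS. Its sgControl PBS libraries were the highest, and its change was -0.30 ± 0.05 (limma adjusted p = 0.000106) in sgHcar1 cells and -0.83 ± 0.05 (limma adjusted p = 3.83e-08) in sgControl cells. Psmb2 had a change of -0.09 ± 0.04 (limma adjusted p = 0.0607) in sgHcar1 cells, which passed the threshold after quantile normalization (-0.22) and after rescaling (-0.27), and -0.66 ± 0.04 (limma adjusted p = 5.19e-08) in sgControl cells.

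Both measured subunits with a proteolytic site, Psmb6 (the caspase-like site) and Psmb7 (the trypsin-like site), were called higher with lactate in sgHcar1 cells and lower in sgControl cells. Psmb6 had 53.2, 50.5 and 54.9 FPKM in the sgHcar1 lactate libraries, against 45.9, 47.2 and 43.5 FPKM in sgHcar1 PBS. With lactate the sgControl libraries held 59.5, 58.3 and 61.4 FPKM, against 82.7, 80.6 and 86.7 FPKM with PBS. Psmb6 was lowest in sgHcar1 PBS and highest in sgControl PBS, with no overlap between any pair of groups that was compared. Its log2 change was 0.21 ± 0.04 (limma adjusted p = 0.00078) in sgHcar1 cells and -0.47 ± 0.04 (limma adjusted p = 1.82e-06) in sgControl cells. Psmb7 stood at 31.7, 35.1 and 35.5 FPKM in sgHcar1 cells with lactate, against 29.1, 30.9 and 28.7 FPKM in sgHcar1 cells with PBS. Its sgControl values were 16.9, 18.1 and 17.5 FPKM with lactate, against 31.1, 31.4 and 31.8 FPKM with PBS. For Psmb7 the sgControl lactate libraries were lowest, while all other groups lay close together. The change was 0.20 ± 0.05 (limma adjusted p = 0.00222) in sgHcar1 cells and -0.81 ± 0.05 (limma adjusted p = 4.31e-08) in sgControl cells, which is 0.57 times the PBS level on the scale of FPKM + 1. In sgHcar1 cells both calls were lost after quantile normalization (0.08 for Psmb6 and 0.05 for Psmb7) and after rescaling (0.03 and 0.02), and both were kept under scaling by median ratios (0.21 and 0.19), whereas the fall in sgControl cells was called under each scaling.

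**Figure D2:**
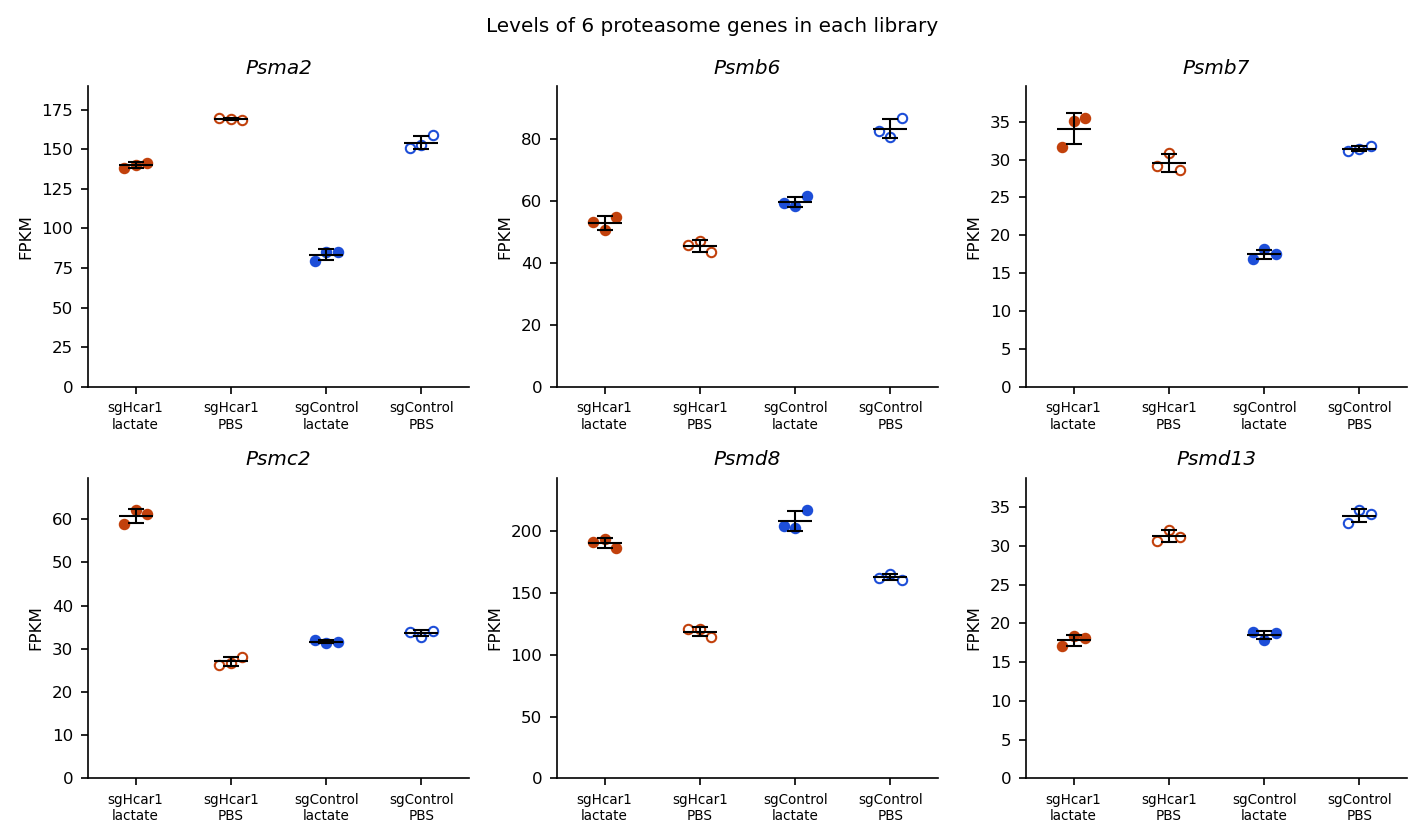
FPKM of 6 proteasome genes in each library, as points with the mean and SD of 3 libraries in black, with filled points for lactate and open points for PBS. Psma2 and Psmb7 are lowest in sgControl lactate, Psmc2 is highest in sgHcar1 lactate, Psmd8 is higher with lactate in both populations and Psmd13 lower with lactate in both.

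In the base, the ring of 6 ATPases was called higher for 4 genes and lower for 2 in sgHcar1 cells. In sgControl cells it was called higher for 1 and lower for 5. The shares of all genes were 36.8% higher and 35.4% lower in sgHcar1 cells, and 33.9% and 31.9% in sgControl cells. Psmc2 had the largest change of all 32 genes. Psmc2 had 59, 62.2 and 61.2 FPKM in the sgHcar1 lactate libraries, against 26.3, 26.7 and 28.2 FPKM in sgHcar1 PBS. In sgControl cells it had 32.1, 31.3 and 31.6 FPKM with lactate, against 33.8, 32.8 and 34.1 FPKM with PBS. The sgHcar1 lactate libraries stood far above all others, and the 3 other groups lay between 26.3 and 34.1 FPKM. The log2 change was 1.14 ± 0.03 (limma adjusted p = 8.52e-11) in sgHcar1 cells, a 2.2-fold rise, and -0.08 ± 0.03 (limma adjusted p = 0.0416) in sgControl cells. The small fall in sgControl cells lost its call after rescaling (-0.04), without the intensity trend, without the filter on low values, and without any of 7 libraries left out singly (all 3 sgControl lactate libraries, sgControl PBS replicates 1 and 3, sgHcar1 PBS replicate 2 and sgHcar1 lactate replicate 3; range -0.10 to -0.07).

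Psmc5 also rose in sgHcar1 cells and fell in sgControl cells. Psmc5 stood at 111, 121 and 127 FPKM in sgHcar1 cells with lactate, against 79.8, 78.7 and 77.8 FPKM in sgHcar1 cells with PBS. The sgControl libraries had 88.5, 91.5 and 97 FPKM with lactate, against 122, 121 and 120.3 FPKM with PBS. Its sgHcar1 PBS libraries were lowest, and the sgHcar1 lactate libraries overlapped with sgControl PBS. The change was 0.60 ± 0.05 (limma adjusted p = 5.1e-07) in sgHcar1 cells and -0.39 ± 0.05 (limma adjusted p = 2.53e-05) in sgControl cells. Psmc6 was called higher in both, by 0.40 ± 0.05 (limma adjusted p = 1.98e-05) in sgHcar1 cells and 0.13 ± 0.05 (limma adjusted p = 0.0315) in sgControl cells, where the call was lost without sgControl PBS replicate 1, sgControl PBS replicate 3 or sgControl lactate replicate 3 (range 0.11 to 0.17) and without the filter on low values. Psmc1 changed by 0.14 ± 0.04 (limma adjusted p = 0.00628) in sgHcar1 cells, a value of 0.01 after quantile normalization and -0.04 after rescaling, called in neither, and by -0.63 ± 0.04 (limma adjusted p = 8.65e-08) in sgControl cells. Psmc3 and Psmc4 fell in both, Psmc4 with changes of -0.13 ± 0.03 (limma adjusted p = 0.00446) in sgHcar1 cells and -0.70 ± 0.03 (limma adjusted p = 8.3e-09) in sgControl cells. Of the base subunits that are not ATPases, the scaffold Psmd1 changed by 0.15 ± 0.03 (limma adjusted p = 0.000848) in sgHcar1 cells, a value of 0.00 after quantile normalization and -0.03 after rescaling, called in neither, and by -0.51 ± 0.03 (limma adjusted p = 6.87e-08) in sgControl cells. Psmd4, a ubiquitin receptor, rose in sgHcar1 cells, at 0.42 ± 0.02 (limma adjusted p = 3.59e-08), and fell in sgControl cells, at -0.15 ± 0.02 (limma adjusted p = 0.000273).

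The lid held the widest spread. Of its 8 genes, 5 were called higher and 3 lower in sgHcar1 cells, and 1 higher and 7 lower in sgControl cells. Across all genes the shares were 36.8% higher and 35.4% lower in sgHcar1 cells, and 33.9% and 31.9% in sgControl cells. Psmd14, the deubiquitinase that removes ubiquitin chains as the substrate enters, rose in sgHcar1 cells and fell in sgControl cells. Psmd14 had 104, 106 and 109.6 FPKM in the sgHcar1 lactate libraries, against 71.3, 73.1 and 70.2 FPKM in sgHcar1 PBS. It had 36.2, 34.7 and 35.8 FPKM in sgControl lactate, against 45.1, 44.8 and 45.1 FPKM in sgControl PBS. Every sgHcar1 library was above every sgControl library, and within each population the lactate and PBS libraries were apart in opposite directions. The log2 change was 0.57 ± 0.03 (limma adjusted p = 7.41e-09) in sgHcar1 cells and -0.33 ± 0.03 (limma adjusted p = 1.1e-06) in sgControl cells. Psmd7 stood at 87.4, 90.3 and 88.5 FPKM in sgHcar1 cells with lactate, against 78.6, 80 and 73.9 FPKM in sgHcar1 cells with PBS. For sgControl the values were 151, 162 and 166 FPKM with lactate, against 181, 182 and 187 FPKM with PBS. Psmd7, the partner that Psmd14 binds, was by contrast lower in every sgHcar1 library than in any sgControl library. Its change was 0.19 ± 0.04 (limma adjusted p = 0.00101) in sgHcar1 cells, a call lost after quantile normalization (0.04) and after rescaling (0.01), and -0.20 ± 0.04 (limma adjusted p = 0.00104) in sgControl cells.

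The scaffold subunits of the lid went several ways. Psmd8 had 191, 194 and 186 FPKM in the sgHcar1 lactate libraries, against 121, 121 and 115 FPKM in sgHcar1 PBS. With lactate the sgControl libraries held 204, 202 and 217 FPKM, against 162, 165 and 160.3 FPKM with PBS. Psmd8, the most abundant of the lid at a mean of 170.0 FPKM, was higher with lactate in all 3 libraries of each population, with sgHcar1 PBS lowest. Its change was 0.68 ± 0.03 (limma adjusted p = 8.88e-09) in sgHcar1 cells and 0.35 ± 0.03 (limma adjusted p = 3.46e-06) in sgControl cells. Psmd13 stood at 17, 18.4 and 18 FPKM in sgHcar1 cells with lactate, against 30.6, 32.1 and 31.2 FPKM in sgHcar1 cells with PBS. Its sgControl values were 18.8, 17.9 and 18.8 FPKM with lactate, against 33, 34.7 and 34.1 FPKM with PBS. Psmd13 differed little between the populations, and its lactate libraries were all well below its PBS libraries. Its change was -0.78 ± 0.04 (limma adjusted p = 5.02e-09) in sgHcar1 cells and -0.84 ± 0.04 (limma adjusted p = 4.93e-09) in sgControl cells, which is 0.583 and 0.559 times the PBS level on the scale of FPKM + 1. Psmd6 had 22.3, 25.4 and 24 FPKM in the sgHcar1 lactate libraries, against 35.1, 34.1 and 32.4 FPKM in sgHcar1 PBS. In sgControl cells it had 29.1, 30.3 and 30.2 FPKM with lactate, against 48.6, 50.8 and 48.7 FPKM with PBS. Psmd6 was also lower with lactate in both, at -0.49 ± 0.05 (limma adjusted p = 2.04e-06) in sgHcar1 cells and -0.71 ± 0.05 (limma adjusted p = 1.41e-07) in sgControl cells. Psmd11 changed by 0.49 ± 0.04 (limma adjusted p = 1.55e-06) in sgHcar1 cells and by -0.13 ± 0.04 (limma adjusted p = 0.0251) in sgControl cells. The sgControl call on Psmd11 was lost after rescaling (-0.09) and without sgControl PBS replicate 1 or 3 or sgControl lactate replicate 2 or 3 (range -0.14 to -0.11).

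Psmd5, Psmd9 and Psmd10 encode chaperones that bind the ATPases while the base is assembled and are not part of the finished particle. Psmd9 was the least abundant gene of the set, at a mean of 6.25 FPKM. Psmd9 stood at 6.59, 6.37 and 6.08 FPKM in sgHcar1 cells with lactate, against 7.33, 7.04 and 6.76 FPKM in sgHcar1 cells with PBS. The sgControl libraries had 5.26, 4.91 and 5.3 FPKM with lactate, against 6.06, 6.46 and 6.78 FPKM with PBS. Its lactate libraries lay just below the PBS libraries in both populations, with changes of -0.13 ± 0.05 (limma adjusted p = 0.0334) in sgHcar1 cells and -0.27 ± 0.05 (limma adjusted p = 0.000522) in sgControl cells; the call in sgHcar1 cells was lost in a fit of the compared groups alone and without sgHcar1 PBS replicate 1 or 2 or sgHcar1 lactate replicate 2 or 3 (range -0.16 to -0.10). Psmd10 had 51.1, 62.5 and 54.9 FPKM in the sgHcar1 lactate libraries, against 50.8, 45.8 and 49.4 FPKM in sgHcar1 PBS. It had 36.5, 35.8 and 40.6 FPKM in sgControl lactate, against 44.8, 50.8 and 47 FPKM in sgControl PBS. Psmd10, also named gankyrin, had the largest standard error of the 32 genes, and its change was 0.20 ± 0.08 (limma adjusted p = 0.0371) in sgHcar1 cells and -0.33 ± 0.08 (limma adjusted p = 0.00294) in sgControl cells. The sgHcar1 call on Psmd10 was lost without sgHcar1 PBS replicate 2 or 3 or sgHcar1 lactate replicate 2 or 3 (range 0.12 to 0.26), without the filter, in a fit of the compared groups alone, after quantile normalization (0.07) and after rescaling (0.02). Psmd5 changed by 0.10 ± 0.04 (limma adjusted p = 0.0415) in sgHcar1 cells, a value of -0.02 after quantile normalization and -0.08 after rescaling, and by -0.03 ± 0.04 (limma adjusted p = 0.533) in sgControl cells. The remaining entries that matched the name pattern, Psma8 (a testis alpha subunit) and Psmb11 (a thymus catalytic subunit), missed the filter and were at 0 in 11 and 8 of 12 libraries, with highest values of 0.0340 and 0.0426 FPKM.

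Core genes were lower relative to regulatory genes with lactate in both populations. The mean log2(FPKM + 1) over the 13 core genes was 6.32 ± 0.02 in sgHcar1 lactate and 6.43 ± 0.03 in sgHcar1 PBS, against 5.82 ± 0.03 in sgControl lactate and 6.43 ± 0.03 in sgControl PBS (SD, n = 3 each). Over the 19 regulatory genes it was 5.64 ± 0.02 in sgHcar1 lactate and 5.46 ± 0.01 in sgHcar1 PBS, against 5.34 ± 0.03 in sgControl lactate and 5.68 ± 0.01 in sgControl PBS. Core minus regulatory was 0.68 ± 0.02 in sgHcar1 lactate, 0.97 ± 0.03 in sgHcar1 PBS, 0.47 ± 0.02 in sgControl lactate and 0.75 ± 0.03 in sgControl PBS. The libraries of these 4 groups did not overlap. The difference moved with lactate by -0.29 in sgHcar1 cells and by -0.28 in sgControl cells, and sgHcar1 minus sgControl of these shifts was -0.01. The core mean was lower with lactate in both populations, by -0.11 in sgHcar1 cells and -0.62 in sgControl cells, while the regulatory mean changed by 0.18 in sgHcar1 cells, a value of 0.06 after quantile normalization and 0.00 after rescaling, and by -0.34 in sgControl cells. Core minus regulatory was higher in sgHcar1 than in sgControl cells by 0.22 in PBS and by 0.21 in lactate, and these values were 0.16 and 0.14 after quantile normalization and 0.22 and 0.20 after rescaling. These are descriptions over chosen genes, given without a test.

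In counts, 4 core genes were called higher and 8 lower with lactate in sgHcar1 cells (median -0.13), and none higher and 13 lower in sgControl cells (median -0.61). Of the regulatory genes, 13 were called higher and 6 lower in sgHcar1 cells (median 0.19). In sgControl cells 2 were called higher and 16 lower (median -0.33). Over all genes 36.8% were called higher and 35.4% lower in sgHcar1 cells, and 33.9% and 31.9% in sgControl cells. After rescaling to an equal FPKM sum no core gene was called higher and 9 were called lower in sgHcar1 cells, with 7 regulatory genes higher and 6 lower. The 32 genes made up 0.594 ± 0.00308% of the summed FPKM in sgHcar1 lactate and 0.633 ± 0.00608% in sgHcar1 PBS, against 0.602 ± 0.00993% in sgControl lactate and 0.776 ± 0.00485% in sgControl PBS (SD, n = 3 each). Their share was thus highest in the sgControl PBS libraries. By group means, sgControl PBS was the highest group for 14 of the 32 genes and the lowest for none, and sgControl lactate was the lowest for 21, including 12 of 13 core genes; Psmb6, the exception, was lowest in sgHcar1 PBS. After rescaling sgControl PBS was the highest group for 22 and the lowest for 1 (Psmd5), and sgControl lactate was the lowest for 14, including 9 of 13 core genes, with Psma6, Psma7 and Psmb3 then lowest in sgHcar1 lactate. The share of all genes with each group highest or lowest is not given here. These counts by group therefore describe the proteasome genes only.

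**Figure D3:**
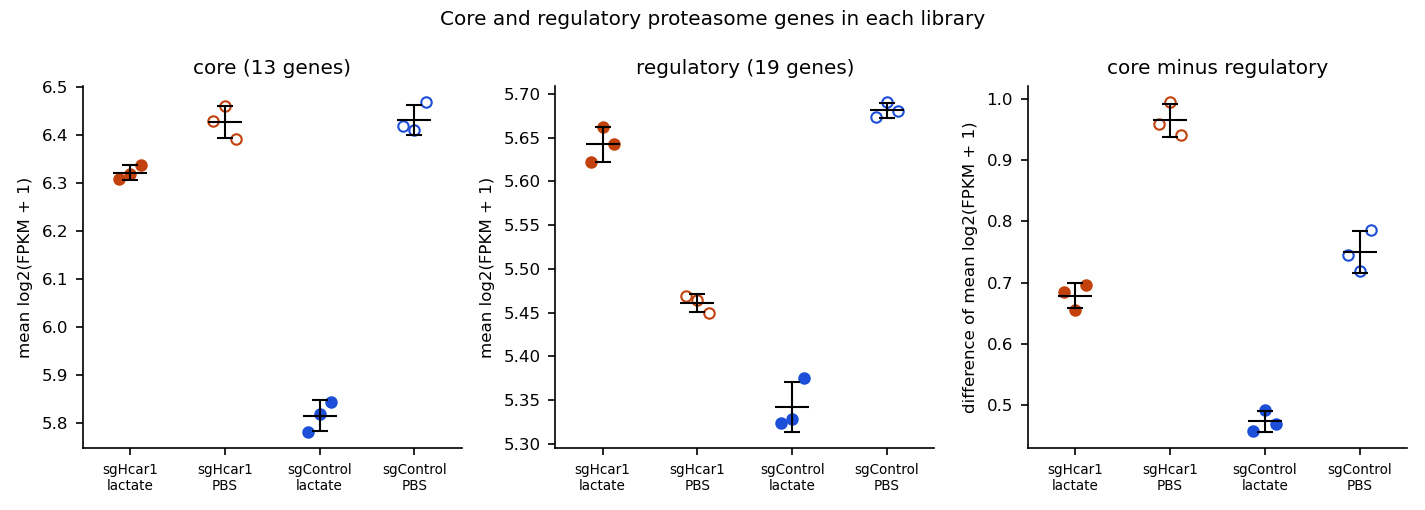
Mean log2(FPKM + 1) in each library over the 13 core genes (left), over the 19 regulatory genes (middle), and their difference (right), with the mean and SD of 3 libraries in black; axes do not start at 0. The core mean is lowest in sgControl lactate at 5.82, and the difference is lower with lactate in both populations, at 0.68 against 0.97 in sgHcar1 cells and 0.47 against 0.75 in sgControl cells.

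The lactate change differed between the populations for most of the genes. The difference of the changes (sgHcar1 minus sgControl) was called above 0 for 29 of 32 genes and below 0 for none, with a median of 0.53, while 30.4% of all genes were called above and 28.7% below with a median of 0.01. All 13 core genes and 16 of 19 regulatory genes were called. The split was 25 above and 0 below after quantile normalization, and 23 above and 1 below (Psmd13) after rescaling, which moved the median of all genes by -0.21. The largest differences were those of Psmc2, at 1.22 ± 0.04 (limma adjusted p = 9.07e-09), Psmb7, at 1.01 ± 0.06 (limma adjusted p = 3.64e-07), and Psmc5, at 0.99 ± 0.07 (limma adjusted p = 5.9e-07). Psmd14 differed by 0.90 ± 0.04 (limma adjusted p = 2.67e-08) and Psmc1 by 0.77 ± 0.05 (limma adjusted p = 7.5e-07). The alpha ring, which fell in both populations, still differed by 0.23 (Psma4) to 0.61 (Psma2) on the deposited scale. After rescaling the difference was 0.00 for Psma4, 0.03 for Psma5 and 0.06 for Psma7, called for none of these, and after quantile normalization Psma4 (0.11) and Psma7 (0.13) were not called. The genes past no threshold were Psmd13, at 0.06 ± 0.05 (limma adjusted p = 0.322), Psmd5, at 0.13 ± 0.06 (limma adjusted p = 0.0675), and Psmd9, at 0.14 ± 0.07 (limma adjusted p = 0.103), and each of these values was negative after rescaling (-0.16, -0.09 and -0.06), while Psmd9 was called above 0 after quantile normalization (0.19). Psmd6, called at 0.22 ± 0.06 (limma adjusted p = 0.0132), was -0.01 after rescaling.

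**Figure D4:**
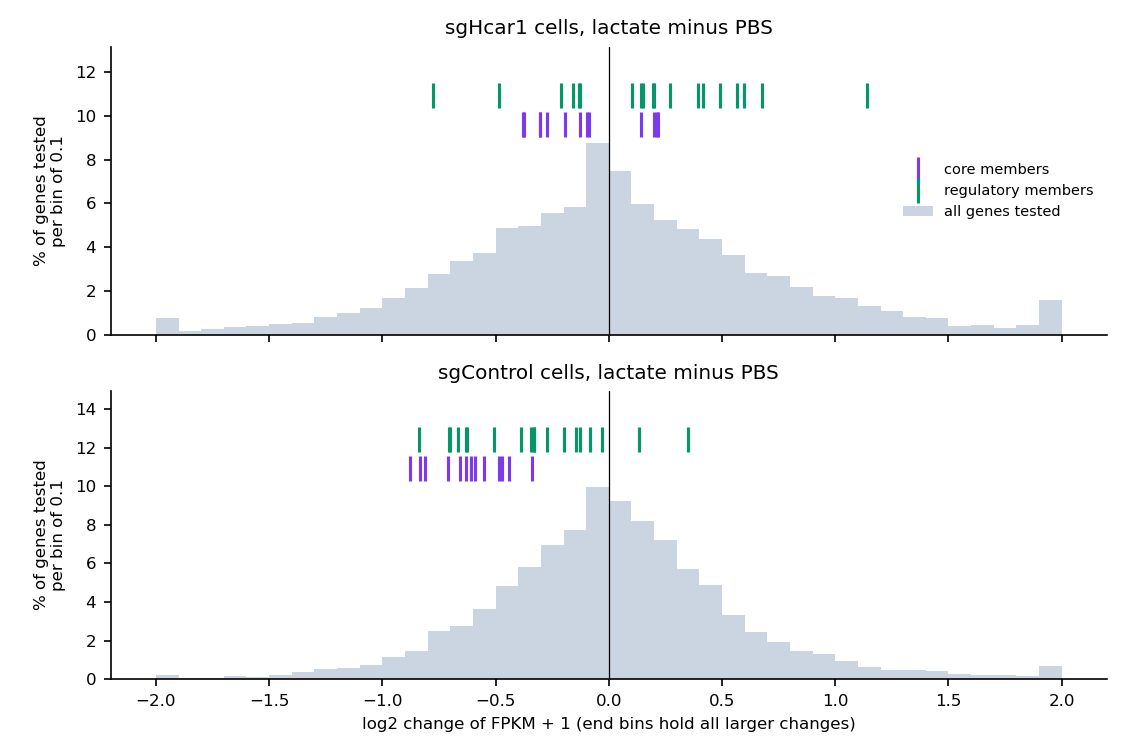
Histogram of the log2 change with lactate of all 13736 genes tested, in sgHcar1 cells (top) and sgControl cells (bottom), with the core genes as purple ticks and the regulatory genes as green ticks above it. In sgControl cells all 13 core ticks lie between -0.88 and -0.34, and in sgHcar1 cells they lie between -0.38 and 0.22.

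Between the guides in PBS, 8 proteasome genes were called higher in sgHcar1 than in sgControl cells and 18 lower, with a median log2 difference of -0.11, while 38.2% of all genes were called higher and 38.4% lower with a median of 0.01. The split was 7 higher and 19 lower after quantile normalization and 6 higher and 22 lower after rescaling, which moved the median of all genes by -0.16. The regulatory genes were called higher for 3 (Psmc4, Psmd5 and Psmd14) and lower for 14, and the core genes higher for 5 and lower for 4. The core split was 3 higher and 5 lower after quantile normalization and 3 higher and 8 lower after rescaling, when Psma1 (-0.17) and Psmb4 (-0.13), both past no threshold on the deposited scale at 0.01 and 0.05, were called lower. Psmc4 was 84.7, 89.9 and 87.4 FPKM in sgHcar1 PBS, against 53.9, 54.9 and 55.4 FPKM in sgControl PBS, with no overlap, a difference of 0.66 ± 0.03 (limma adjusted p = 5.67e-09). Psmd14 and Psmd5 followed, at 0.66 ± 0.03 (limma adjusted p = 1.61e-09) and 0.54 ± 0.04 (limma adjusted p = 2.63e-07). The lowest relative to sgControl were Psmd7, at -1.23 ± 0.04 (limma adjusted p = 1.77e-10), Psmb6, at -0.86 ± 0.04 (limma adjusted p = 5.9e-09), and Psmd11, at -0.83 ± 0.04 (limma adjusted p = 1.36e-08). Psmb7 had -0.09 ± 0.05 (limma adjusted p = 0.101) and was called lower after rescaling (-0.27) and without sgHcar1 PBS replicate 2 or sgHcar1 lactate replicate 1 (range -0.12 to -0.07). Psma2, called higher at 0.13 ± 0.03 (limma adjusted p = 0.00251), was -0.01 after quantile normalization and -0.05 after rescaling.

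In lactate, 23 proteasome genes were called higher in sgHcar1 than in sgControl cells and 6 lower, with a median of 0.43, against 41.3% higher and 40.9% lower of all genes and a median of 0.01. The split was 19 higher and 8 lower after quantile normalization and 13 higher and 12 lower after rescaling, which moved the median of all genes by -0.37. The comparison shares its lactate libraries with those above and is no separate evidence. Psmd14 was highest relative to sgControl at 1.56 ± 0.03 (limma adjusted p = 1.04e-12), a 2.94-fold difference, followed by Psmc4 at 1.24 ± 0.03 (limma adjusted p = 2.27e-11) and Psmb7 at 0.92 ± 0.05 (limma adjusted p = 5.03e-09). Psmd7 was lowest at -0.84 ± 0.04 (limma adjusted p = 3.45e-09), followed by Psmd6 at -0.31 ± 0.05 (limma adjusted p = 6.21e-05) and Psmd11 at -0.21 ± 0.04 (limma adjusted p = 0.000959). Psmb6 was the core gene called lower, at -0.17 ± 0.04 (limma adjusted p = 0.00247). Of the 23 genes called higher, Psma6, Psma7, Psmb3, Psmc5, Psmd9 and Psmd12 had negative values after rescaling (-0.26 for Psma7 to -0.03 for Psma6), so their direction depends on the scaling.

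The immunoproteasome subunits, which replace the catalytic subunits under interferon, were low except for Psmb10. Psmb8 stood at 1.61, 1.49 and 1.26 FPKM in sgHcar1 cells with lactate, against 0.734, 1.26 and 1.03 FPKM in sgHcar1 cells with PBS. For sgControl the values were 7.14, 7.79 and 9.17 FPKM with lactate, against 6.88, 6.02 and 6.66 FPKM with PBS. Psmb8 was lower in every sgHcar1 library than in any sgControl library, by -1.88 ± 0.11 (limma adjusted p = 1.95e-08) in lactate and -1.91 ± 0.11 (limma adjusted p = 2.21e-08) in PBS. On the plain scale it averaged 1.45 ± 0.175 FPKM in sgHcar1 lactate against 8.03 ± 1.04 FPKM in sgControl lactate, and 1.01 ± 0.265 FPKM in sgHcar1 PBS against 6.52 ± 0.449 FPKM in sgControl PBS (SD, n = 3 each), a wider gap than the log2(FPKM + 1) values give. Psmb10 was also lower in sgHcar1 cells, at -0.81 ± 0.09 (limma adjusted p = 7.4e-06) in lactate and -0.53 ± 0.09 (limma adjusted p = 0.000277) in PBS. Psmb9 was by contrast called higher in sgHcar1 cells, at 0.45 ± 0.11 (limma adjusted p = 0.00202) in lactate, a call lost after rescaling (0.30), and 0.42 ± 0.11 (limma adjusted p = 0.00354) in PBS. With lactate Psmb8 had 0.29 ± 0.11 (limma adjusted p = 0.0301) in sgHcar1 cells. That call was lost without sgHcar1 PBS replicate 1 or 3 or sgHcar1 lactate replicate 1 or 2 (range 0.19 to 0.38). It was also lost after rescaling (0.27), without the filter and in a fit of the compared groups alone. In sgControl cells Psmb8 had 0.26 ± 0.11 (limma adjusted p = 0.0544). This passed the threshold without sgControl lactate replicate 1 or sgHcar1 PBS replicate 1 or 2 (range 0.17 to 0.33). Psmb10 had 15.3, 14.9 and 12.8 FPKM in the sgHcar1 lactate libraries, against 12.5, 13 and 11.6 FPKM in sgHcar1 PBS. With lactate the sgControl libraries held 24.1, 24 and 29.8 FPKM, against 19.2, 16.8 and 18.8 FPKM with PBS. Psmb10 was called higher with lactate in sgControl cells, by 0.48 ± 0.09 (limma adjusted p = 0.000797), and had 0.20 ± 0.09 (limma adjusted p = 0.0741) in sgHcar1 cells, which passed the threshold without sgControl lactate replicate 3 or sgHcar1 lactate replicate 3 (range 0.15 to 0.27). Psmb9 had 0.11 ± 0.11 (limma adjusted p = 0.398) in sgHcar1 cells, a value of -0.01 after rescaling, and 0.07 ± 0.11 (limma adjusted p = 0.564) in sgControl cells. None of these 3 genes differed between the populations in its lactate change past the threshold, though Psmb10, at -0.28 ± 0.13 (limma adjusted p = 0.0862), was called after quantile normalization (-0.35) and after rescaling (-0.51).

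Of the 5 genes for activators and the inhibitor of the core, 2 were called higher with lactate in sgHcar1 cells and 2 lower. In sgControl cells 1 was called each way. Of all genes, 36.8% were called higher and 35.4% lower in sgHcar1 cells, and 33.9% higher and 31.9% lower in sgControl cells. Psme4 stood at 20.9, 20.6 and 21.9 FPKM in sgHcar1 cells with lactate, against 12.6, 12.6 and 13 FPKM in sgHcar1 cells with PBS. Its sgControl values were 17.5, 17.2 and 16.4 FPKM with lactate, against 18.7, 20.1 and 18.4 FPKM with PBS. Psme4, an activator that caps the core without ATPases, was lowest in sgHcar1 PBS. It changed by 0.69 ± 0.04 (limma adjusted p = 3.24e-08) in sgHcar1 cells and -0.15 ± 0.04 (limma adjusted p = 0.00558) in sgControl cells. Psme3, a nuclear activator, was called higher in both, by 0.48 ± 0.04 (limma adjusted p = 2.01e-06) in sgHcar1 cells and 0.15 ± 0.04 (limma adjusted p = 0.0139) in sgControl cells, where the call was lost without sgControl PBS replicate 3 (range 0.13 to 0.16). Psmf1, the inhibitor, was called lower in sgHcar1 cells, at -0.20 ± 0.06 (limma adjusted p = 0.0174), a call lost without sgHcar1 lactate replicate 3 (range -0.22 to -0.18). Psme1, of an interferon-induced activator, was the other gene called lower in sgHcar1 cells, at -0.13 ± 0.05 (limma adjusted p = 0.0477), and its call was lost without sgControl PBS replicate 1, sgControl lactate replicate 1 or 2, sgHcar1 PBS replicate 2 or 3, or any sgHcar1 lactate replicate (range -0.17 to -0.09), without the filter, without the intensity trend and with array weights. Psme2, the partner of Psme1, was called higher in sgHcar1 than in sgControl cells in PBS, at 0.43 ± 0.18 (limma adjusted p = 0.0488), a call lost when any of 10 libraries was left out (all but sgControl PBS replicate 3 and sgHcar1 PBS replicate 2; range 0.26 to 0.67) and after rescaling (0.26).

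Of the 5 measured assembly factors of the core, 3 were called lower with lactate in each population, with none higher in sgHcar1 cells and 1 (Psmg3) higher in sgControl cells, at 0.18 ± 0.06 (limma adjusted p = 0.0178). The Psmg3 call was lost without sgControl PBS replicate 1 or 2 or sgControl lactate replicate 2 (range 0.14 to 0.23) and in a fit of the compared groups alone. In sgHcar1 cells 4 of the 5 were lower after quantile normalization and 5 after rescaling. On the deposited scale 35.4% of all genes were called lower in sgHcar1 cells and 31.9% in sgControl cells, with 36.8% and 33.9% higher. Pomp had 35.8, 36.6 and 37.6 FPKM in the sgHcar1 lactate libraries, against 46.6, 48.3 and 46.1 FPKM in sgHcar1 PBS. In sgControl cells it had 11, 9.06 and 10.2 FPKM with lactate, against 20.1, 22.4 and 22.4 FPKM with PBS. Pomp, the maturation protein that is consumed as each core is completed, was higher in every sgHcar1 library than in any sgControl library, and it was lower with lactate in both. Its log2 change was -0.35 ± 0.06 (limma adjusted p = 0.000344) in sgHcar1 cells and -1.03 ± 0.06 (limma adjusted p = 7.17e-08) in sgControl cells, and the difference between them was 0.68 ± 0.09 (limma adjusted p = 5.59e-05). Psmg1 and Psmg2, which pair to assist the alpha ring, fell in both. The change of Psmg1 was -0.39 ± 0.06 (limma adjusted p = 0.000107) in sgHcar1 cells and -0.35 ± 0.06 (limma adjusted p = 0.000341) in sgControl cells, and that of Psmg2 was -0.31 ± 0.06 (limma adjusted p = 0.000715) in sgHcar1 cells and -0.22 ± 0.06 (limma adjusted p = 0.00703) in sgControl cells. Psmg4 was higher in sgHcar1 cells, by 1.01 ± 0.08 (limma adjusted p = 2.93e-07) in lactate and 1.06 ± 0.08 (limma adjusted p = 2.5e-07) in PBS, and was called in neither lactate comparison.

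Of 9 other particle and associated proteins, 5 were called higher and 2 lower with lactate in sgHcar1 cells, and 3 higher and 4 lower in sgControl cells. In sgHcar1 cells 3 were lower after quantile normalization and after rescaling. The deposited scale had 36.8% of all genes called higher and 35.4% lower in sgHcar1 cells, and 33.9% and 31.9% in sgControl cells. Zfand2a stood at 149, 129.8 and 152 FPKM in sgHcar1 cells with lactate, against 17.6, 17.2 and 17.8 FPKM in sgHcar1 cells with PBS. The sgControl libraries had 59.6, 60.9 and 58.3 FPKM with lactate, against 15.3, 15.1 and 16.4 FPKM with PBS. Zfand2a, a zinc finger protein that binds the proteasome and is induced by arsenite, was far higher in every lactate library than in any PBS library. Its log2 change was 2.96 ± 0.05 (limma adjusted p = 6.09e-12) in sgHcar1 cells and 1.87 ± 0.05 (limma adjusted p = 2.57e-10) in sgControl cells. Zfand5, another zinc finger protein that binds the proteasome, rose by 1.32 ± 0.05 (limma adjusted p = 7.16e-10) in sgHcar1 cells and 0.63 ± 0.05 (limma adjusted p = 5.03e-07) in sgControl cells. Uchl5, a deubiquitinase of the regulatory particle, fell in both, at -0.17 ± 0.05 (limma adjusted p = 0.0163) in sgHcar1 cells and -0.48 ± 0.05 (limma adjusted p = 1.22e-05) in sgControl cells. Shfm1, the small lid subunit now named Sem1, fell in both, at -0.30 ± 0.06 (limma adjusted p = 0.00153) in sgHcar1 cells and -0.39 ± 0.06 (limma adjusted p = 0.000286) in sgControl cells. AI314180, which RefSeq names Ecpas, a protein that binds the particle, rose by 0.39 ± 0.03 (limma adjusted p = 2.33e-07) in sgHcar1 cells and 0.34 ± 0.03 (limma adjusted p = 1.22e-06) in sgControl cells. The ubiquitin receptor Adrm1 passed the threshold in no comparison and lay between 28.5 and 31.6 FPKM in all 12 libraries, though it was called lower with lactate in sgHcar1 cells after quantile normalization (-0.13) and after rescaling (-0.18).

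The list for transcription of proteasome genes holds both the factors and proteins that act on them. Of its 8 measured genes, 6 were called higher with lactate and 2 lower in sgHcar1 cells, and 7 higher and 1 lower in sgControl cells. The splits were the same after quantile normalization and after rescaling. Among all genes 36.8% were called higher and 35.4% lower in sgHcar1 cells, and 33.9% and 31.9% in sgControl cells. Nfe2l1 had 79.9, 83.7 and 83.5 FPKM in the sgHcar1 lactate libraries, against 50.5, 52.6 and 53.2 FPKM in sgHcar1 PBS. It had 166, 164 and 162 FPKM in sgControl lactate, against 48.4, 50.4 and 50.9 FPKM in sgControl PBS. Nfe2l1 was highest in the sgControl lactate libraries, and its PBS libraries overlapped between the guides. Its log2 change was 0.65 ± 0.03 (limma adjusted p = 4.92e-09) in sgHcar1 cells and 1.70 ± 0.03 (limma adjusted p = 7.77e-12) in sgControl cells, a difference of -1.05 ± 0.04 (limma adjusted p = 1.76e-08). Nfe2l2 stood at 53.9, 55.3 and 53.2 FPKM in sgHcar1 cells with lactate, against 41.6, 40.8 and 43.6 FPKM in sgHcar1 cells with PBS. For sgControl the values were 40.7, 43.3 and 42.3 FPKM with lactate, against 15.2, 15.3 and 15.3 FPKM with PBS. Nfe2l2, the factor of the oxidative stress response, was lowest in sgControl PBS. Its change was 0.36 ± 0.03 (limma adjusted p = 1.06e-06) in sgHcar1 cells and 1.41 ± 0.03 (limma adjusted p = 3.89e-11) in sgControl cells, a difference of -1.05 ± 0.04 (limma adjusted p = 2.29e-08). In the same sgControl lactate libraries 29 of the 32 proteasome genes were called lower than in PBS, against 31.9% of all genes. Whether the RNA levels of Nfe2l1 and Nfe2l2 bear on the proteasome genes was not tested.

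Their small Maf partners rose as well. Mafk had 74.7, 68.1 and 74.7 FPKM in sgHcar1 lactate, against 15.2, 14.5 and 14 FPKM in sgHcar1 PBS, and 34.8, 33.6 and 32.6 FPKM in sgControl lactate, against 7.06, 6.53 and 7.77 FPKM in sgControl PBS. Its log2 change was 2.24 ± 0.06 (limma adjusted p = 5.35e-11) in sgHcar1 cells and 2.10 ± 0.06 (limma adjusted p = 1.79e-10) in sgControl cells, and that of Maff was 2.11 ± 0.04 (limma adjusted p = 6.12e-12) in sgHcar1 cells and 1.39 ± 0.04 (limma adjusted p = 1.91e-10) in sgControl cells. The competing repressor Bach1 rose by 1.35 ± 0.05 (limma adjusted p = 9.07e-10) in sgHcar1 cells and 0.74 ± 0.05 (limma adjusted p = 2.14e-07) in sgControl cells. Keap1, which targets Nfe2l2 for degradation, fell in both, at -0.76 ± 0.05 (limma adjusted p = 4.42e-08) in sgHcar1 cells and -0.50 ± 0.05 (limma adjusted p = 2.48e-06) in sgControl cells. Ngly1, the glycanase that activates Nfe2l1, was lower with lactate in sgHcar1 cells, at -0.29 ± 0.08 (limma adjusted p = 0.00614), and higher in sgControl cells, at 0.31 ± 0.08 (limma adjusted p = 0.00489). Nfe2l3 stayed under the filter, at a mean of 0.145 FPKM, and Ddi2 was not analysed here.

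Of 12 genes for ubiquitin activation, shuttling and extraction, 10 were called higher and 0 lower with lactate in sgHcar1 cells, and 9 higher and 2 lower in sgControl cells. Over all genes the shares were 36.8% higher and 35.4% lower in sgHcar1 cells, and 33.9% higher and 31.9% lower in sgControl cells. After quantile normalization the split of these 12 was 6 higher and 0 lower in sgHcar1 cells, and 8 higher and 0 lower in sgControl cells. After rescaling to an equal FPKM sum the split was 6 higher and 3 lower in sgHcar1 cells and 9 higher and 0 lower in sgControl cells. Ubqln1 had 142, 133 and 149 FPKM in the sgHcar1 lactate libraries, against 53.4, 51.4 and 54.1 FPKM in sgHcar1 PBS. With lactate the sgControl libraries held 51.6, 51.4 and 49 FPKM, against 47.6, 46.5 and 46.5 FPKM with PBS. Ubqln1, a shuttle that carries ubiquitinated proteins to the proteasome, was highest in the sgHcar1 lactate libraries, and the 3 other groups lay between 46.5 and 54.1 FPKM. Its log2 change was 1.40 ± 0.04 (limma adjusted p = 9.55e-11) in sgHcar1 cells and 0.11 ± 0.04 (limma adjusted p = 0.0291) in sgControl cells (a call lost under scaling by median ratios, at 0.10), a difference of 1.29 ± 0.06 (limma adjusted p = 2.72e-08). Faf1, a cofactor of the extracting ATPase Vcp, rose by 1.03 ± 0.04 (limma adjusted p = 7.51e-10) in sgHcar1 cells and 0.43 ± 0.04 (limma adjusted p = 1.85e-06) in sgControl cells. Of the other cofactors of Vcp, Ufd1l rose by 0.35 ± 0.03 (limma adjusted p = 1.69e-06) in sgHcar1 cells and 0.26 ± 0.03 (limma adjusted p = 3.14e-05) in sgControl cells. Faf2 and Nsfl1c were called higher in sgControl cells, at 0.25 ± 0.04 (limma adjusted p = 0.00017) and 0.18 ± 0.05 (limma adjusted p = 0.00481), and in sgHcar1 cells, at 0.17 and 0.20, where both calls were lost after quantile normalization (0.04 and 0.05) and after rescaling (-0.01 and 0.02). Between the guides, Uba6, a ubiquitin activating enzyme, was higher in sgHcar1 cells, at 0.91 ± 0.05 (limma adjusted p = 1.35e-08) in lactate and 0.74 ± 0.05 (limma adjusted p = 9.73e-08) in PBS. Ubqln2, a shuttle related to Ubqln1, was lower in sgHcar1 cells, at -1.03 ± 0.05 (limma adjusted p = 2.74e-09) in lactate and -0.87 ± 0.05 (limma adjusted p = 1.54e-08) in PBS. Rps27a, which encodes ubiquitin fused to a ribosomal protein, passed the threshold in neither lactate comparison.

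**Figure D5:**
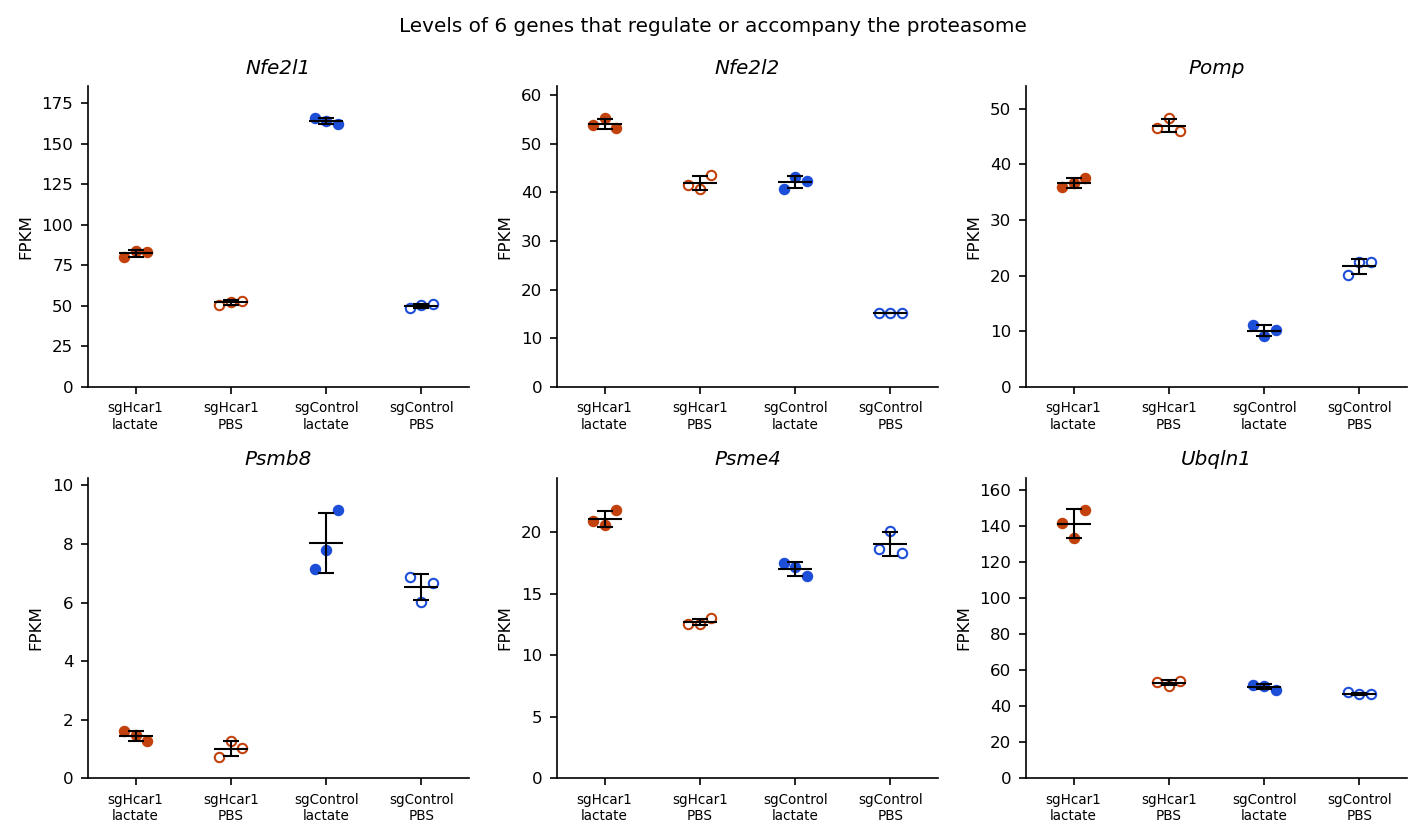
FPKM of 6 genes that regulate or accompany the proteasome in each library, as points with the mean and SD of 3 libraries in black, with filled points for lactate and open points for PBS. Nfe2l1 is highest in sgControl lactate, Nfe2l2 lowest in sgControl PBS, Pomp and Psmb8 separate the guides, Psme4 is lowest in sgHcar1 PBS and Ubqln1 highest in sgHcar1 lactate.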

How the data were processed

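RNA of 12 MC38 libraries was sequenced from Trizol extracts with a TruSeq RNA kit, per the labels' protocols. The authors deposited 1 table of FPKM values, per the file headers, made with HISAT2 2.0.5 and featureCounts 1.5.0-p3 on GRCm38 per the submitters' processing notes. How fragments shared between near-identical gene copies were counted is not given in the sources used here. Value columns were assigned to samples by their letters and replicate numbers, those of sgHcar1 by elimination. The table holds no counts, so depth is unknown and no count test or counting interval is given. Relative depth, from the steps of low values, was 0.745 to 1 of the deepest library. The sgHcar1 lactate libraries were lowest, at 0.745 to 0.793, against 0.865 to 1 in the other groups. They also had the largest FPKM sums, 411996 to 421984, against 310109 to 317330 in sgControl lactate. Libraries of a group correlated at 0.990 to 0.992.

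FPKM values were taken as deposited. The 13736 genes that reached 1 FPKM in 3 or more libraries were put on the scale of log2(FPKM + 1). The limma package (3.58.1, under R 4.3.3) fitted them with an intensity trend, 1 mean per group over all 12 libraries and no replicate block. Tests were two-sided, with Benjamini-Hochberg adjustment over all genes in each of 5 contrasts and a threshold of 0.05. The fit was tested on simulated data. Genes under the filter had an exact permutation test.

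The members and the gene lists were chosen with earlier results of these data known. Named by rule were Psmb6 to Psmb10, Nfe2l1, Nfe2l2 and Hcar1, the members called in opposite directions, the 3 largest rises and falls of a contrast, the most and least abundant member, members under the filter, and up to 4 called genes of each list, by size. Other members are named to show a range. The lists were immunoproteasome catalytic subunits, activators and inhibitor, core assembly factors, other particle and associated proteins, transcription of proteasome genes, ubiquitin genes, and activation, shuttling and extraction. Some genes of these lists are not reported here. Alternatives were a pseudocount of 0.1, no filter, a mean of at least 5 FPKM, 3 other scalings between libraries, no trend, the replicate block, array weights, a 2-fold minimum, only the compared groups, and each library left out. The scaling alternatives were median-ratio scaling, quantile normalization and rescaling to an FPKM sum of 1000000. Promoter sequences are those of RefSeq.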

Additional observations from a re-analysis of the deposited data

Results flagged for a closer look

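For 53 of the 75 proteasome and listed genes examined the lactate change differed between sgHcar1 and sgControl cells, by the limma test of that difference (sgHcar1 minus sgControl, adjusted p below 0.05). Over all 13736 genes the same test called 30.4% above 0 and 28.7% below 0. Of the 53 called genes, 29 were among the 32 proteasome subunit genes, and the rest were listed genes. As a whole the listed genes were called no more often than all genes. Counts above and below 0 were 2 and 1 of 5 for activators and inhibitor, and 1 and 1 of 5 for core assembly factors. Associated proteins had 6 and 0 of 9, transcription genes 2 and 5 of 8, and activation, shuttling and extraction 6 and 0 of 12. None of 3 immunoproteasome genes was called. In the alpha ring the difference of log2 changes was 0.52 for Psma1, 0.61 for Psma2, 0.36 for Psma3, 0.23 for Psma4, 0.26 for Psma5, 0.45 for Psma6 and 0.29 for Psma7. In the beta ring it was 0.55 for Psmb1, 0.57 for Psmb2, 0.53 for Psmb3, 0.58 for Psmb4, 0.68 for Psmb6 and 1.01 for Psmb7. Among the ATPases it was 0.77 for Psmc1, 1.22 for Psmc2, 0.42 for Psmc3, 0.58 for Psmc4, 0.99 for Psmc5 and 0.26 for Psmc6. For the Psmd genes it was 0.66 for Psmd1, 0.51 for Psmd3, 0.56 for Psmd4, 0.22 for Psmd6, 0.39 for Psmd7, 0.33 for Psmd8, 0.53 for Psmd10, 0.62 for Psmd11, 0.61 for Psmd12 and 0.90 for Psmd14.

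Among activators and assembly factors the difference was -0.20 for Psme1, 0.33 for Psme3, 0.84 for Psme4, 0.68 for Pomp and -0.30 for Psmg3. Among associated proteins it was 0.57 for Txnl1, 0.27 for Ube3c, 0.32 for Uchl5, 0.37 for Usp14, 1.09 for Zfand2a and 0.68 for Zfand5. Among the genes of transcription it was -1.05 for Nfe2l1, -1.05 for Nfe2l2, -0.26 for Keap1, -0.38 for Mafg, -0.60 for Ngly1, 0.61 for Bach1 and 0.72 for Maff. In the list of activation, shuttling and extraction it was 0.61 for Faf1, 0.38 for Nploc4, 0.30 for Rad23b, 0.20 for Uba1, 1.29 for Ubqln1 and 0.21 for Vcp. Rescaling each library to an FPKM sum of 1000000 moves the median of this difference over all genes by -0.21. The proteasome subunit genes then stood at 23 above and 1 below, with Psma4, Psma5, Psma7, Psmc6, Psmd6 and Psmd8 no longer called. Associated proteins went from 6 above and 0 below to 3 and 2. Activation, shuttling and extraction went from 6 above and 0 below to 3 and 4, with Vcp at -0.02. Genes of transcription kept 2 above and 5 below.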

How the results depend on the processing

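The counts of genes called and their medians kept their direction under the pseudocount of 0.1, a minimum mean of 5 FPKM, scaling by median ratios, no intensity trend, array weights and the fit of only the compared groups. After rescaling to an FPKM sum of 1000000 the counts of 32 genes were 7 higher and 15 lower with lactate in sgHcar1 cells, 1 lower for the difference, and 13 higher and 12 lower between guides in lactate, and the median in sgHcar1 cells was -0.061. After quantile normalization 8 were higher with lactate in sgHcar1 cells, with a median of -0.011. Without the filter 1 gene was called higher in sgControl cells. With a change of at least 2-fold the counts were 0 higher and 0 lower in sgControl cells, 1 higher and 0 lower in sgHcar1 cells, 2 higher for the difference, 0 higher and 1 lower between guides in PBS, and 2 higher and 0 lower in lactate. Core minus regulatory without the filter, which adds Psma8 and Psmb11, was -0.197 with lactate in sgControl cells, -0.077 for the difference and 0.140 between guides in lactate; after quantile normalization it was 0.163 in PBS and 0.138 in lactate. Without the assembly chaperones it was -0.057 for the difference, 0.300 between guides in PBS and 0.243 in lactate.

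Of the 32 genes, 4 changed sign after rescaling with lactate in sgHcar1 cells, 1 in sgControl cells, 4 for the difference, 5 between guides in PBS and 7 in lactate. Between guides in lactate, Psma7, Psmb3 and Psmd12 were called higher on the deposited scale and lower after rescaling. Psmd13 for the difference, Psma1 and Psmb4 in PBS, and Psmc3 in lactate were called, as lower, only after rescaling. Among these and other named genes, values were, with lactate in sgHcar1 cells Psmb9 (-0.013), Psmb4 (-0.045), Psmc1 (-0.044) and Psmd1 (-0.031); for the difference Psmb8 (-0.057), Psmb9 (-0.166) and Psmd9 (-0.059); between guides in PBS Nfe2l1 (-0.117) and Psmd9 (-0.046), and in lactate Nfe2l2 (-0.049), Psme3 (-0.105), Psme4 (-0.100), Psmf1 (-0.124), Psmg3 (-0.035) and Psmd9 (-0.105). With each library left out, genes called higher in sgControl cells numbered 1 to 2, with 1 without sgControl PBS replicate 1 or 3 or sgControl lactate replicate 3. The difference ranged from -0.069 to 0.123 for Psmb8 and from -0.048 to 0.117 for Psmb9. The cause of these changes was not tested.

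Same-numbered libraries did not deviate together (0 of 18 pairs of libraries correlated over 0.1, range -0.051 to 0.085). The absence of a shared deviation does not settle whether same-numbered libraries were prepared together. With the replicate block the counts were 17 higher and 13 lower in sgHcar1 cells (Psmd9 lost its call), 2 and 29 in sgControl cells, 29 and 0 for the difference, 8 and 18 between guides in PBS, and 23 and 6 in lactate. Depth is unknown, which limits what can be said of genes near 0.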
